A study of Homo sapiens with 4 samples.

Results

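The 8 genes described here encode subunits and regulators of cullin-RING ubiquitin ligases. They encode the scaffolds CUL1, CUL2, CUL3, CUL4A and CUL5, the RING subunit RBX1, the ubiquitin-like modifier NEDD8 and the exchange factor CAND1. Reads were taken from 1 hg19 strand window per gene, and the 8 windows held 31 of the 33723 3′ end sites with a mean of at least 1 RPM (1 read per 1000000 reads of the library). CAND1 and NEDD8 were chosen because of their values after CstF-64 siRNA. Their values in that contrast are therefore a description without a test. The other 6 genes were chosen as partners of these.

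A cullin holds an adaptor with its substrate receptor at one end and RBX1, which recruits the ubiquitin-conjugating enzyme, at the other. Attachment of NEDD8 to the cullin activates the ligase. CAND1 binds cullins that do not carry NEDD8 and promotes the exchange of their substrate receptors.

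The 3′ ends of mRNAs from HEK293, a human embryonic kidney cell line, were profiled by A-seq, which sequences the fragment next to the poly(A) tail. The first of the 4 groups received no siRNA and the second a scrambled control siRNA. The next group received an siRNA against CstF-64, the subunit of cleavage stimulation factor that binds the U- and GU-rich element past the cleavage position. The last received an siRNA against CF Im 68, the large subunit of cleavage factor I, a complex that recognises UGUA motifs ahead of the cleavage position. Cells with siRNA were harvested 3 days after its addition, and their depletion was examined by Western blot per the labels, with no values given there. Each group was 1 library, so no result has a replicate check, and differences between 2 libraries cannot be told apart from differences between 2 cultures. The question was which 3′ end of a gene is used, and how often, when each factor is depleted.

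The 2 depleting siRNAs had these strands, shown because they define the contrasts. Each strand has 2 unspecified bases before the 19 bases printed 5′ to 3′, and no base is singled out by capitals.
CstF-64 siRNA: ccugaaugggcgcgaauuc
CF Im 68 siRNA: gaccgagauuacauggaua

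The 4 libraries, named below by their siRNA, held 15806975 reads in the no-siRNA, 13443454 in the control, 7343112 in the CstF-64 and 12792623 in the CF Im 68 library. In this order, a count of 0 allows up to 0.190, 0.223, 0.409 and 0.235 RPM (3 reads). The CstF-64 library was the shallowest, so its values carry the widest counting intervals. All intervals below are exact 95% intervals for counting error only: conditional binomial for ratios and Clopper-Pearson for shares. Fewer transcripts per cell and a different mix of cells cannot be told apart in bulk libraries.

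Together the 8 windows collected 1650 RPM in the no-siRNA, 1397 in the control, 1161 in the CstF-64 and 1185 in the CF Im 68 library. RBX1 had the highest level in every library and CUL5 the lowest, with CUL2 next to it. A level was called changed when RPM plus 1 differed at least 2-fold from both control libraries in the same direction. No member was called higher or lower after CF Im 68 siRNA, where 5.02% of 17877 loci over the genome were called higher and 1.86% lower. These loci had at least 50 reads over the 4 libraries, counted in their sites only. A member level counted all reads of its window, so the measures are not the same. The median member differed from control siRNA by 0.04 on the log2 scale, beside 0.02 over all loci. After CstF-64 siRNA no member was called higher and 2 were called lower, CAND1 and NEDD8, the genes picked on this contrast, where 1.82% of loci were called higher and 6.11% lower. Among the 6 members not picked, none was called in either direction. The median member lay at -0.14 on the log2 scale against control siRNA, beside -0.19 over all loci, and TMM factors bring the latter to -0.01. With those factors the small differences of CUL1, CUL4A and RBX1 from control siRNA turned from lower to higher. Both depletions were compared with the same 2 control libraries, between which no member differed 2-fold, where 5.2% of loci were higher after control siRNA and 1.95% lower.

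**Figure D1:**
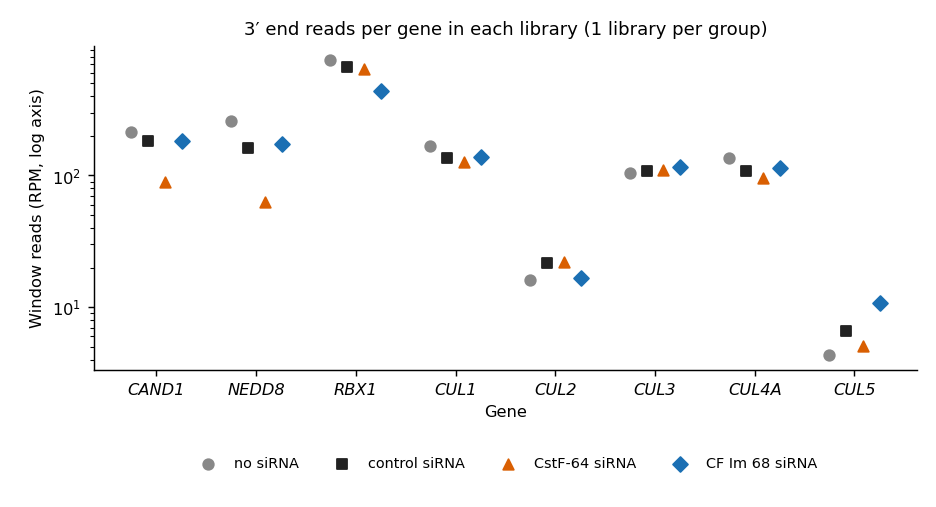
Reads of each gene window in RPM on a log axis, with 1 point per library and no replicates. CAND1 and NEDD8 lie lowest in the CstF-64 library, and both were picked for moves between 3′ end sites in that library. RBX1 lies lowest and CUL5 highest in the CF Im 68 library, and neither was called.

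CAND1, on the plus strand of chromosome 12, differed in which of its ends were used as well as in level. Its window held 213 RPM in the no-siRNA, 183.2 in the control, 89.7 in the CstF-64 and 182 in the CF Im 68 library. Only the CstF-64 library stood apart, at 0.490 of control siRNA (0.449 to 0.534) and 0.422 of no siRNA (0.388 to 0.459). This fall passed 2-fold when reads were scaled by library totals, at a log2 difference from control siRNA of -1.02, but not with TMM or DESeq2 factors, which gave -0.81 and -0.78. CAND1 in the CF Im 68 library was at 0.995 of control siRNA (0.939 to 1.05).

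The CAND1 reads came from 4 sites over 1438 nt, lying as an upstream couple at positions 67706961 and 67707014 and a downstream couple at 67707921 and 67708399. The couples were formed after the values were seen. The upstream couple had 74.0 RPM in the no-siRNA, 81.3 in the control, 68.8 in the CstF-64 and 108 in the CF Im 68 library. The downstream couple had 131, 91.3, 16.5 and 67.2 RPM in the same order. The downstream ends were thus lowest in the CstF-64 library and second lowest in the CF Im 68 library, whereas the upstream ends were highest in the CF Im 68 library.

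After CstF-64 siRNA the downstream CAND1 ends stood at 0.180 of control siRNA (0.148 to 0.218) and 0.126 of no siRNA (0.104 to 0.151). The upstream ends stood at 0.846 (0.760 to 0.941) and 0.929 (0.835 to 1.03). The lower CAND1 level in that library was thus mostly a matter of its downstream ends. With CF Im 68 siRNA the downstream ends stood at 0.736 of control siRNA (0.674 to 0.804) and the upstream ends at 1.33 (1.23 to 1.45). Against no siRNA these ratios were 0.513 (0.474 to 0.556) and 1.47 (1.36 to 1.59). In that library the lower downstream and higher upstream reads summed to a gene total near that of control siRNA.

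**Figure D2:**
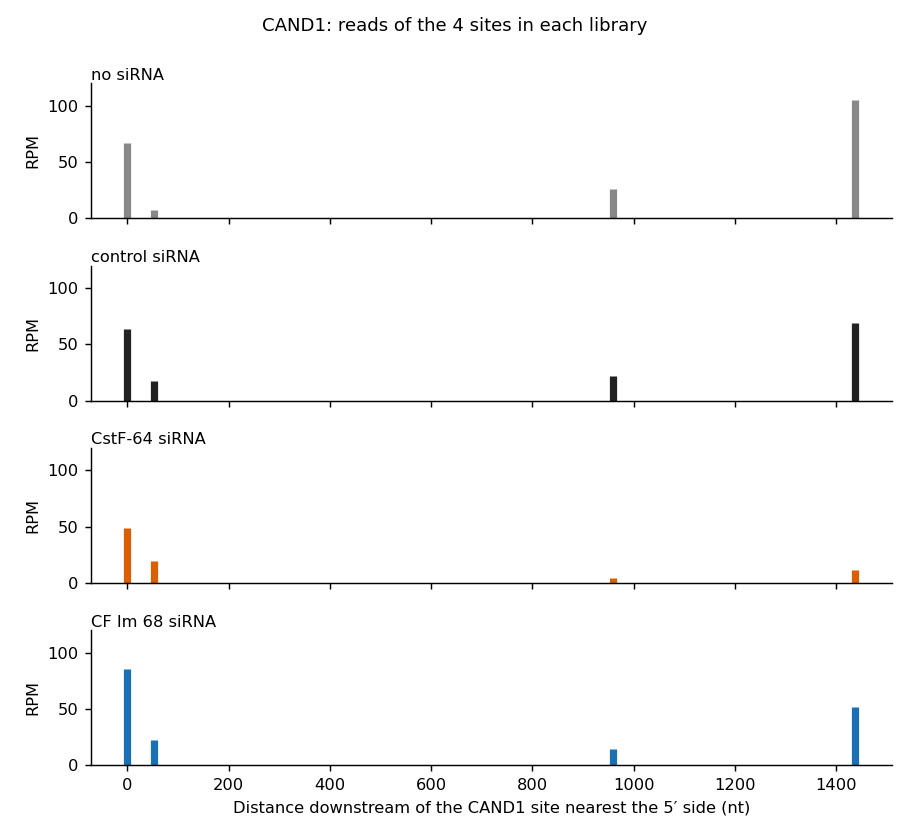
Reads in RPM at the 4 CAND1 sites in each of the 4 libraries, against distance downstream of the most upstream site in nt. The site at 1438 nt is the highest bar in both control libraries, and the site at 0 nt is the highest in both depleted libraries.

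Each of the 4 CAND1 sites can be read on its own. The most upstream, 67706961, had 66.9, 63.5, 48.8 and 86.1 RPM in the no-siRNA, control, CstF-64 and CF Im 68 libraries. Its neighbour 53 nt further on, at 67707014, had 7.09, 17.8, 20.0 and 22.4 RPM. That site was low only without siRNA, and all 3 libraries with siRNA lay above it. The first downstream site, 67707921, had 26.1, 22.0, 4.90 and 14.9 RPM. The last, 67708399, had 105, 69.3, 11.6 and 52.3 RPM. Both downstream sites had the order no siRNA, control, CF Im 68, CstF-64. Past the window end, the ends at 67709863 and 67710067 had at most 1.71 and 3.20 RPM in any library, so little use lay further downstream within 10 kb.

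For a test over the genome, the 2 most used sites of a locus were taken as a pair, and the proximal share gives the part of their reads, in percent, that fell on the site nearer the 5′ side. A locus is a most used site with all sites within 10 kb on its strand. A pair was counted as moved when the Benjamini-Hochberg adjusted p of a two-sided Fisher's exact test against control siRNA was below 0.05 and the share differed by at least 10 points from each control library in the same direction. Such a test on 1 library each compares the libraries, not the treatments. CAND1, CUL1, CUL2, CUL3 and CUL4A had a pair inside their window among the 4793 tested, and NEDD8, RBX1 and CUL5 did not.

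The CAND1 pair, 67706961 and 67708399, had a proximal share of 39.0% in the no-siRNA library (37.1 to 40.8, 2715 pair reads) and 47.8% in the control library (45.5 to 50.2, 1786 reads). The share was 62.2% in the CF Im 68 library (59.9 to 64.5, 1770 reads) and 80.8% in the CstF-64 library (76.8 to 84.4, 443 reads). The 4 intervals do not overlap. After CF Im 68 siRNA the share was 14.4 points above control siRNA, with an adjusted p of 7.15e-17 by Fisher's exact test, and 23.2 points above no siRNA. CAND1 was the only 1 of 5 members with a tested pair to be called proximal, where 24.2% of all tested pairs were called proximal and 2.63% distal. This count lies near the genome share. The contrast uses the same control libraries as the one on which CAND1 was chosen, and the control libraries themselves differed by 8.85 points at this pair (adjusted p 4.90e-08 by Fisher's exact test). Over all tested pairs that control difference had a median size of 5.01 points.

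After CstF-64 siRNA the CAND1 share lay 33.0 points above control siRNA and 41.8 above no siRNA, the values for which it was picked. Over the genome 8.2% of tested pairs were called proximal and 3.59% distal in that contrast. None of the 4 members tested and not picked was called. The read-weighted mean end of CAND1, counted from its most upstream site, lay at 860, 705, 263 and 516 nt in the no-siRNA, control, CstF-64 and CF Im 68 libraries. Relative to control siRNA the mean end lay at -189 nt in the CF Im 68 library and at -442 nt in the CstF-64 library, both towards the 5′ side.

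**Figure D3:**
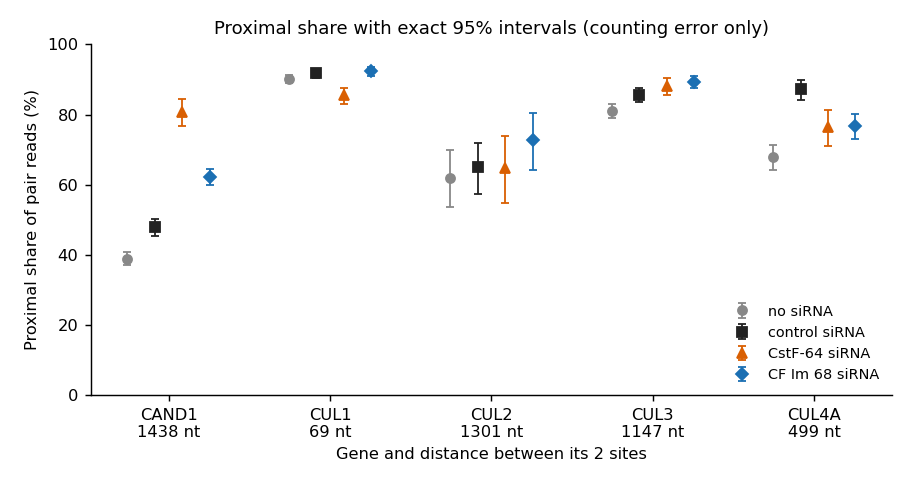
Proximal share in percent of pair reads for the 5 genes with a tested pair, by library, with exact 95% intervals for counting error. The CAND1 share is highest in the CstF-64 library and next highest in the CF Im 68 library, the CUL4A share is highest after control siRNA, and the other 3 genes vary less.

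NEDD8, on the minus strand of chromosome 14, ended almost wholly at 1 site. That site, 24686072, had 251 RPM in the no-siRNA, 152 in the control, 53.5 in the CstF-64 and 166 in the CF Im 68 library. It held 96.9%, 93.4%, 85.8% and 95.7% of window reads in these libraries. Only the CstF-64 library was low, at 0.352 of control siRNA (0.315 to 0.393) and 0.214 of no siRNA (0.192 to 0.237). The gene was picked on this contrast, so these values are a description without a test. The whole NEDD8 window stood at 0.383 of control siRNA (0.346 to 0.424). The control libraries also differed, with control siRNA at 0.629 of no siRNA (0.597 to 0.663). With CF Im 68 siRNA the window level was 1.07 of control siRNA (1.004 to 1.13) and 0.670 of no siRNA (0.636 to 0.706), so it lay between the controls.

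The other NEDD8 sites carried few reads and were not called. The neighbouring site 59 nt downstream, 24686013, had 6.71, 6.47, 5.86 and 4.46 RPM in the no-siRNA, control, CstF-64 and CF Im 68 libraries. A site further upstream, 24687103, had 0.696, 1.93, 1.91 and 1.33 RPM. At both, the CstF-64 values lay close to those after control siRNA.

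The site 2910 nt downstream of the NEDD8 site, 24683162, lies outside the window. In the RefSeq order (GRCh38.p14) the genes that follow NEDD8 on this strand are MDP1, a phosphatase gene that also shares the readthrough gene NEDD8-MDP1 with it, and then CHMP4A, which encodes an ESCRT-III subunit. This downstream site had 62.1 RPM in the no-siRNA, 73.7 in the control, 96.3 in the CstF-64 and 56.4 in the CF Im 68 library. It was highest in the CstF-64 library, at 1.31 of control siRNA (1.18 to 1.44) and 1.55 of no siRNA (1.41 to 1.71). The next, 24679062 at 7010 nt, had 27.3, 23.1, 28.2 and 24.7 RPM in the same order. Within the locus of 10 kb the pair of most used sites was the NEDD8 site with 24683162, and its proximal share was 80.2%, 67.3%, 35.7% and 74.6%. Control siRNA itself lay -12.8 points from no siRNA (adjusted p 2.47e-35 by Fisher's exact test). After CstF-64 siRNA the share met the limits of a distal move, at -31.6 points from control siRNA. NEDD8 was picked on that contrast, so this is a description without a test. Because the second site lies past the NEDD8 window, that share compares ends that may belong to different transcripts. Which transcript ends at 24683162 was not tested.

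Within the NEDD8 site, the libraries differed in which cleavage position they used. Reads gathered at 24686072 and at 24686087, which is 15 nt upstream on the transcript. The upstream position had 81.3 RPM in the no-siRNA, 58.8 in the control, 36.0 in the CstF-64 and 34.8 in the CF Im 68 library. The downstream position had 113, 57.0, 8.58 and 94.2 RPM. The CstF-64 library was thus low at both and lowest at the downstream position, whereas the CF Im 68 library was low only at the upstream position.

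The upstream position held 32.4%, 38.7%, 67.2% and 21.0% of NEDD8 site reads in the no-siRNA, control, CstF-64 (62.3 to 71.8) and CF Im 68 libraries. The downstream position held 45.0%, 37.5%, 16.0% (12.5 to 20.0 after CstF-64 siRNA) and 56.8% in the same order. After CstF-64 siRNA the downstream position stood at 0.151 of control siRNA (0.115 to 0.195) and the upstream one at 0.612 (0.530 to 0.704). With CF Im 68 siRNA these ratios were 1.65 (1.51 to 1.81) and 0.592. Against no siRNA, however, the downstream position was at 0.836 after CF Im 68 siRNA. A rise of that position in RPM therefore holds only against control siRNA, while its share was above both controls.

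The mean end of the NEDD8 site, relative to its most used position, lay at -5.82 nt in the no-siRNA, -7.76 nt in the control, -10.7 nt in the CstF-64 and -3.32 nt in the CF Im 68 library. The CstF-64 library was thus at least 2 nt upstream of both controls and the CF Im 68 library at least 2 nt downstream of both. The limit of 2 nt was set after these values were seen. Of 16 member sites with at least 50 reads in every library, the NEDD8 site was the only one past it in either depletion. Over 10437 such sites of the genome, 0.642% passed it upstream after CstF-64 siRNA and 0.489% passed it downstream after CF Im 68 siRNA. The opposite directions passed in 1.08% and 0.22%. As the limit came after the values and NEDD8 was picked on the CstF-64 contrast, these shares do not measure how rare its values are.

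**Figure D4:**
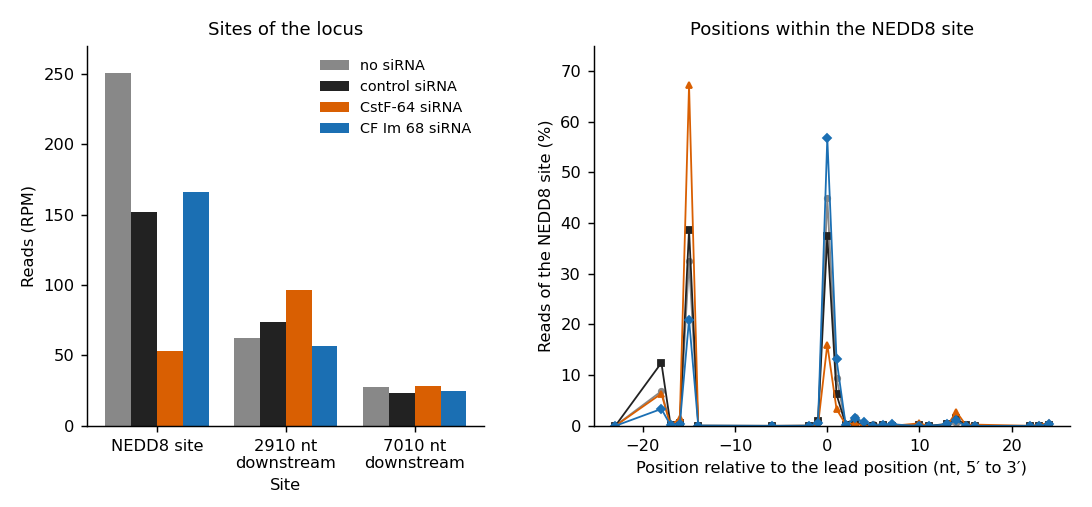
Left, reads in RPM at the NEDD8 site and at the sites 2910 and 7010 nt downstream, with 1 bar per library. Right, percent of NEDD8 site reads at each position relative to the most used one in nt, where lines join positions with reads: the CstF-64 library peaks at -15 nt and the CF Im 68 library at 0 nt.

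RBX1, the RING subunit bound by CUL1, CUL2, CUL3 and CUL4A, had the lowest ratio to both controls of any member after CF Im 68 siRNA, yet short of the 2-fold limit. Its window on the plus strand of chromosome 22 had 749 RPM in the no-siRNA, 670 in the control, 650 in the CstF-64 and 435 in the CF Im 68 library. It was lowest in the CF Im 68 library, at 0.650 of control siRNA (0.629 to 0.672) and 0.581 of no siRNA (0.563 to 0.600). On the log2 scale these are differences of -0.62 and -0.78, and 11.9% and 10.3% of loci, counted over their sites, lay lower still. After CstF-64 siRNA the ratio to control siRNA was 0.970.

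The main RBX1 site, 41368667, carried 96.0%, 92.7%, 93.5% and 96.3% of the window reads, with 719, 621, 608 and 419 RPM in the no-siRNA, control, CstF-64 and CF Im 68 libraries. A second site, 41347475, lay 475 nt inside the upstream end of the window and 21192 nt before the main one. It had 27.1, 45.3, 39.6 and 13.3 RPM, and after CF Im 68 siRNA stood at 0.293 of control siRNA (0.246 to 0.348) and 0.490 of no siRNA (0.408 to 0.586). The upstream site was thus also lowest in the CF Im 68 library. Between 98.2% and 99.8% of its reads lay at a single position.

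CUL1, the scaffold of the SCF ligases with F-box receptors, showed no called change. Its window on the plus strand of chromosome 7 had 168 RPM in the no-siRNA, 136 in the control, 126 in the CstF-64 and 138 in the CF Im 68 library. The CF Im 68 value lay between the controls. The CstF-64 value was the lowest, at 0.925 of control siRNA, a direction that also turned with DESeq2 factors. Most CUL1 reads lay at 148498127, with a second site 69 nt downstream at 148498196. The proximal share of this pair was 90.1%, 91.8%, 85.5% (83.0 to 87.7 after CstF-64 siRNA) and 92.4% in the same order. It was lowest in the CstF-64 library, 6.31 points under control siRNA with an adjusted p of 1.04e-05 by Fisher's exact test, which is short of the 10 points of a call. In the CF Im 68 library it was 0.579 points above control siRNA (adjusted p 0.627 by Fisher's exact test).

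CUL2, the scaffold that carries the VHL receptor, was lower in all libraries, on the minus strand of chromosome 10. Its window had 16.1 RPM in the no-siRNA, 21.6 in the control, 22.2 in the CstF-64 and 16.6 in the CF Im 68 library, from 163 to 290 reads. With CF Im 68 siRNA it was 0.768 of control siRNA (0.640 to 0.920) but 1.03 of no siRNA. Its pair, 35298781 and 35297480 at 1301 nt, had a proximal share of 61.9% (53.5 to 69.8), 65.0% (57.5 to 72.0), 64.8% and 72.9% (64.3 to 80.3 after CF Im 68 siRNA). This share was highest in the CF Im 68 library, by 7.90 points over control siRNA and 11.0 over no siRNA, with an adjusted p of 0.246 by Fisher's exact test. With 105 to 177 pair reads per library, the intervals of the CF Im 68 and both control shares overlap. The mean CUL2 end lay at 407 and 386 nt in the no-siRNA and control libraries, at 357 nt in the CstF-64 and at 290 nt in the CF Im 68 library.

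CUL3, the scaffold of ligases with BTB-domain receptors, was the steadiest member in level. Its window on the minus strand of chromosome 2 had 104 RPM in the no-siRNA, 108 in the control, 110 in the CstF-64 and 115 in the CF Im 68 library. Its pair, 225338622 and 225337475 at 1147 nt, had a proximal share of 81.1% (79.0 to 83.1) in the no-siRNA, 85.7% (83.7 to 87.5) in the control, 88.2% (85.6 to 90.5) in the CstF-64 and 89.3% (87.5 to 91.0) in the CF Im 68 library. As in CUL2, where the intervals overlap, the share was lowest in the no-siRNA and highest in the CF Im 68 library. Its CF Im 68 share was 3.65 points above control siRNA and 8.20 above no siRNA. The adjusted p was 0.0119 by Fisher's exact test, and the size was short of a call. The distal site itself had 17.8, 14.1, 11.3 and 10.9 RPM in the no-siRNA, control, CstF-64 and CF Im 68 libraries. The control libraries differed by 4.55 points at this pair (adjusted p 0.00505 by Fisher's exact test), more than the step from control siRNA to CF Im 68 siRNA. With clustering within 10 nt another CUL3 pair was tested, 225338646 and 225338622. Its share was 20.0% in the no-siRNA, 19.4% in the control, 20.1% in the CstF-64 and 22.6% in the CF Im 68 library.

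CUL4A, the scaffold that carries the DDB1 adaptor, had the largest difference in proximal share between the control libraries among the 5 tested members. Its window on the plus strand of chromosome 13 had 137 RPM in the no-siRNA, 108 in the control, 96.0 in the CstF-64 and 113 in the CF Im 68 library. The tested pair, 113918857 and 113919356 at 499 nt, had a proximal share of 67.8% (64.2 to 71.3) in the no-siRNA, 87.2% (84.0 to 90.0) in the control, 76.5% (71.0 to 81.4) in the CstF-64 and 76.7% (73.1 to 80.2) in the CF Im 68 library. Both depleted libraries lay between the controls. Each was over 10 points under control siRNA (adjusted p 2.50e-05 after CF Im 68 and 0.00121 after CstF-64 siRNA by Fisher's exact test) and over 8 points above no siRNA, so neither was a call. The control libraries differed by 19.4 points (adjusted p 3.60e-14 by Fisher's exact test), beside 10.6% of tested pairs past the limits of 0.05 and 10 points in the proximal and 11.1% in the distal direction.

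The most used CUL4A site in each library was 113884530, 34327 nt upstream of 113918857. It had 77.1 RPM in the no-siRNA, 52.3 in the control, 42.8 in the CstF-64 and 43.9 in the CF Im 68 library. Its share of CUL4A window reads was 56.4% (54.3 to 58.5), 48.3% (45.7 to 50.9), 44.5% (40.8 to 48.3) and 38.8% (36.3 to 41.3) in this order. The 5 sites at the downstream end of the window, grouped after the values were seen, had 53.0, 47.8, 47.4 and 61.3 RPM. They were highest in the CF Im 68 library, at 1.28 of control siRNA (1.15 to 1.43) and 1.16 of no siRNA (1.05 to 1.28). These sites held 38.8%, 44.1% (41.6 to 46.7), 49.4% (45.6 to 53.1) and 54.1% of CUL4A window reads in the same order. Between these distant parts, the reads thus lay further downstream than in both controls after either depletion, furthest after CF Im 68 siRNA. As a pair, 113884530 and 113918857 had a proximal share -4.77 points from control siRNA after CF Im 68 siRNA, short of a call. Against no siRNA that difference was -16.3 points. After CstF-64 siRNA the differences were -0.418 points from control siRNA and -11.9 from no siRNA. The control libraries themselves differed at this pair, with 60.9% after control siRNA and 72.4% without siRNA. Within the downstream end, over the 4 sites with at least 5% of locus reads and counted from 113918190, the mean CUL4A end lay at 859, 768, 834 and 746 nt in the no-siRNA, control, CstF-64 and CF Im 68 libraries. By that measure the CF Im 68 library was the furthest upstream, at -21.6 nt from control siRNA and -113 nt from no siRNA.

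CUL5, the scaffold of ligases with SOCS-box receptors, had the fewest reads, with 68 in the no-siRNA, 89 in the control, 37 in the CstF-64 and 137 in the CF Im 68 library. These are 4.30, 6.62, 5.04 and 10.7 RPM in its window on the plus strand of chromosome 11. The CF Im 68 library was the highest, at 1.62 of control siRNA (1.23 to 2.14) and 2.49 of no siRNA (1.85 to 3.38), which missed a call against control siRNA. Reads on the opposite strand of the window numbered 62, 34, 12 and 75, and only 39.9% of window reads lay in sites of at least 1 RPM, so part of this level is spread over scattered positions. No CUL5 pair reached the 50 reads in every library that a test needed.

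The CUL5 reads gathered at 107978503 and at 3 clusters from 107975242 to 107975736, of which only the last reached the mean of 1 RPM that defines a site. The first had 14, 22, 15 and 23 reads in the no-siRNA, control, CstF-64 and CF Im 68 libraries. The 3 upstream clusters, grouped after the values were seen, together had 22, 25, 8 and 70 reads, or 1.39, 1.86, 1.09 and 5.47 RPM. Their level after CF Im 68 siRNA was 2.94 of control siRNA (1.84 to 4.85) and 3.93 of no siRNA (2.41 to 6.67). Their share of CUL5 window reads was 32.4% (21.5 to 44.8), 28.1% (19.1 to 38.6), 21.6% (9.83 to 38.2) and 51.1% (42.4 to 59.7). The interval of the CF Im 68 share overlaps only that of no siRNA.

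At the level of single sites, 31 were measured in the members. After CF Im 68 siRNA 1 was called at least 2-fold higher than both controls and 1 lower, beside 8.57% and 1.73% of all sites. The higher one was 113918190 in CUL4A just before the tested pair, with 21, 24, 10 and 92 reads in the no-siRNA, control, CstF-64 and CF Im 68 libraries. The lower one was 148428655 in CUL1. After CstF-64 siRNA none was higher and 3 were lower, beside 1.65% and 5.07% of all sites. These 3 were both downstream CAND1 sites and the main NEDD8 site, in the genes picked on that contrast. Among the 24 sites of the other 6 genes none was called in either direction after CstF-64 siRNA.

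Sites far upstream of the last site of a window formed a group of their own, looked at after the values were seen. There were 6 that lay over 5 kb before the 3′-most site, with 2 in CUL4A and 1 each in CUL1, CUL2, CUL3 and RBX1. All 6 had fewer RPM in the CF Im 68 library than in either control, beside 31.1% of all sites of the genome. After CstF-64 siRNA 3 of the 6 did, beside 43.6% of all sites. No share was computed for genome sites that lie as far upstream, so neither percentage is a like background. For the CUL2, CUL3 and weaker CUL4A sites, the CF Im 68 value lay within counting error of no siRNA. A CUL5 cluster at 107968529, under the mean of 1 RPM, went the other way, with 0.253, 0.744, 0.272 and 1.09 RPM in the no-siRNA, control, CstF-64 and CF Im 68 libraries. The site in CUL1, 148428655, had 3.42 RPM in the no-siRNA, 4.09 in the control, 1.50 in the CstF-64 and 0.782 in the CF Im 68 library. Its CF Im 68 level was 0.191 of control siRNA (0.0868 to 0.378) and 0.229 of no siRNA (0.104 to 0.454), from 10 reads.

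The RBX1 site and the main CUL4A site are given with their genes, and the other 3 were weak. In CUL2, 35318284 had 1.58, 2.23, 1.23 and 0.860 RPM in the no-siRNA, control, CstF-64 and CF Im 68 libraries. In CUL3, 225376091 had 1.08, 2.01, 1.09 and 0.860 RPM. At both, the interval of the CF Im 68 ratio to no siRNA included 1. The second CUL4A site, 113885484, had 1.58, 1.34, 2.45 and 1.25 RPM. Its CF Im 68 level was 0.934 of control siRNA (0.446 to 1.94) and 0.791 of no siRNA (0.395 to 1.54), so both intervals included 1. Of the 6, 4 consisted of at most 4 positions, a form that priming inside an A-rich stretch can also give, and their part in the result was not tested. All 4 of these were below both controls after CF Im 68 siRNA, beside 28.5% of genome sites of that form.

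**Figure D5:**
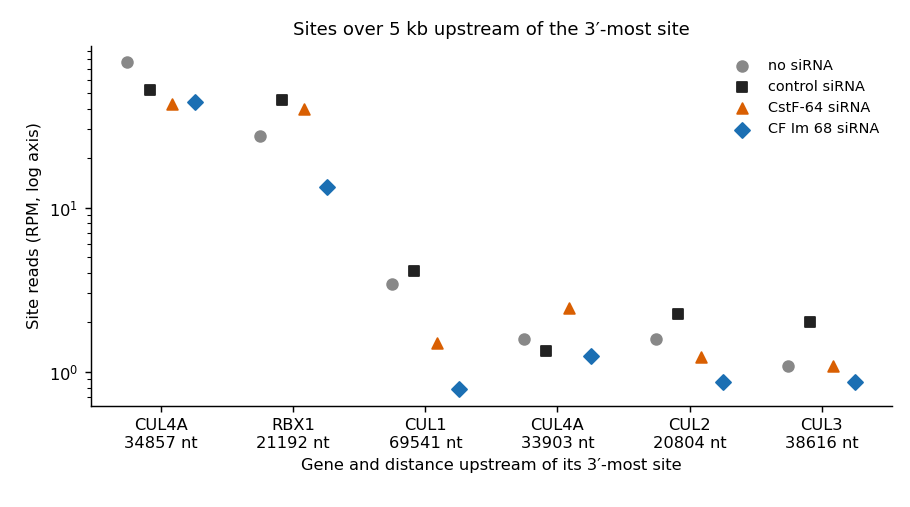
Reads in RPM on a log axis at the 6 sites over 5 kb upstream of the 3′-most site of their window, with 1 point per library and the distance in nt under each gene. The CF Im 68 point lies under both control points at each of the 6 sites. At the CUL2, CUL3 and weaker CUL4A sites it lies within counting error of no siRNA.

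In 4 of the 5 tested members the proximal share after CF Im 68 siRNA was above both controls, CUL4A being the exception, beside 59.1% of all tested pairs. Of these 4 only CAND1 was called. The CUL1 difference from control siRNA was 0.579 points, and -0.155 points with libraries thinned to the CstF-64 depth. The median change against control siRNA over all pairs was 4.84 points. The loci whose 4 proximal shares lay nearest to those of a member, by root mean square difference over the 4 libraries, were found for each tested member. They are given by their proximal site, 3 per member. For CAND1 these were 99979589 on chromosome 6, 99884691 on chromosome X and 67545470 on chromosome 8, at 5.45 to 5.97 points. CUL4A had 43629982 on chromosome 1, 463340 on chromosome 20 and 179382485 on chromosome 5, at 2.30 to 2.75 points. CAND1 thus had the most distant neighbours of the 5 tested members, but the distance includes the CstF-64 share for which CAND1 was picked. It therefore cannot set CAND1 apart from the members that were not picked. For CUL1 the nearest loci were 617225 on chromosome 19, 177037275 on chromosome 5 and 66428504 on chromosome 3, at 0.916 to 1.43 points. CUL2 had 42908569 on chromosome 22, 17251216 on chromosome 21 and 72636229 on chromosome 15, at 1.65 to 1.82 points. CUL3 had 37581700 on chromosome 20, 109524027 on chromosome 12 and 56772696 on chromosome 17, at 0.652 to 1.27 points.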

How the data were processed

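The files deposited by the authors list raw read counts for single 3′ end positions on each strand. The build is hg19 (GRCh37), as the submitters' processing notes name it, and positions are 1-based. How reads were aligned and whether PCR copies were removed is not given in the sources used here. Gaps in the running numbers showed that 2.83 to 19.6% of numbered positions per window and library were missing, for a reason the labels do not state.

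Windows, members and gene lists were chosen with earlier results of these data known. Positions within 25 nt were clustered from the most used one down (numpy 2.4.6, pandas 2.3.3). Clusters with a mean of at least 1 RPM were sites, and the most used site took those within 10 kb as its locus. Pairs needed 5% of locus reads per site and 50 pair reads per library. Fisher's exact test (scipy 1.17.1) was adjusted over 4793 loci. Levels were compared on the log2 scale of RPM plus 1, without a test. The pair test was tested on simulated reads drawn from pooled control shares, without the differences seen between the control libraries. Scaling factors came from edgeR 4.0.16 (TMM) and DESeq2 1.42.0, as alternatives. All 8 members are named, with genes in the same locus and the 3 most similar loci per tested member. No annotation of hg19 was used here, so exons and introns are not given, and other genes of the pathway were not analysed here.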

Additional observations from a re-analysis of the deposited data

How the results depend on the processing

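With 1 library per group no library could be left out, and no paired analysis was possible because the labels give no replicate numbers. Over 11 alternatives for pairs and 5 for levels, 62 of 64 counts over members stayed within 1.5 times. This says little about stability, because many of the 64 were counts of calls that no member had in any setting. Such were the distal calls of pairs inside the windows, the higher levels, and the lower levels after CF Im 68 siRNA. All other counts held only CAND1 or NEDD8, the genes picked on the CstF-64 contrast. The 2 counts that changed were the members lower by the 2-fold limit in the CstF-64 library. There were 2 such members with library totals and 1 with TMM or with DESeq2 factors. CAND1 was lost, at -0.81 with TMM and -0.78 with DESeq2 factors. Over the alternatives CAND1 kept its call after CF Im 68 siRNA, at 14.2 to 15.9 points over control siRNA and 22.6 to 24.8 over no siRNA. Alternatives for the NEDD8 mean end, chosen after seeing the data, gave 4.45 to 4.51 nt downstream of control siRNA after CF Im 68 siRNA, and -2.83 to -3.22 nt after CstF-64 siRNA. Locus levels without a read minimum were not run. The depth limits CUL5, CUL2 and the weak upstream sites most.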
